A study of Rattus norvegicus with 30 samples.

Results

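The comparison of kainate with phosphate-buffered saline (PBS) at 24 h rested on 6 of the 30 arrays of a rat hippocampus seizure series. Total RNA of the hippocampus came from 3 samples treated with kainate and 3 treated with PBS, all taken 24 h after treatment, with 1 Affymetrix array per sample. A gene was represented by probe sets, groups of short oligonucleotides that report 1 signal intensity on an arbitrary linear scale. Every probe set that was not an array control and had a signal above 35 on at least 3 of the 6 arrays was included, whatever its difference between the groups, which gave 5332 of 8740 probe sets and 3226 named genes. The other 24 arrays, kainate and PBS at 1, 6, 72 and 240 h, were used only to place the effect at 24 h among the other times. Strain, sex, age, dose, route and seizure severity are not given in the sources used here. The labels do not say that the arrays of a group came from separate animals, and a p-value here speaks of the spread among arrays, which may be technical.

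Kainate is an agonist of ionotropic glutamate receptors, and in rats it causes prolonged limbic seizures in which hippocampal neurons fire together. Background knowledge of this model places the transcription of immediate early genes first, followed by neuropeptides and growth factors. Over the following days astrocytes and microglia become reactive, and vulnerable pyramidal neurons can degenerate. In RNA of a whole tissue, fewer cells of a type and less RNA per cell cannot be told apart.

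At 24 h 314 of 5332 probe sets differed (5.89%), 160 of them higher (3.0%) and 154 lower (2.89%) after kainate, at a Benjamini-Hochberg adjusted p under 0.05 in limma. The 6 arrays were fitted alone, and 1347 probe sets and 818 of 3226 genes had an unadjusted p under 0.05. Counted by gene, with the probe set of the highest mean level standing for each, 184 of 3226 genes differed (5.70%), 90 higher (2.79%) and 94 lower (2.91%). The rises were the larger changes: 48 genes rose and 23 fell by more than 2-fold. The median change over all genes was −0.06 on the log2 scale, and the groups did not overlap for 31.4% of genes (421 higher, 591 lower after kainate). Of the 184 genes, 42 passed in each of the 6 fits that left out 1 array, 34 of them higher and 8 lower. In those fits between 98 and 364 probe sets passed, 98 of them without PBS array 3, 101 without PBS array 2, 112 without kainate array 3, 141 without kainate array 1 and 154 without PBS array 1.

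**Figure D1:**
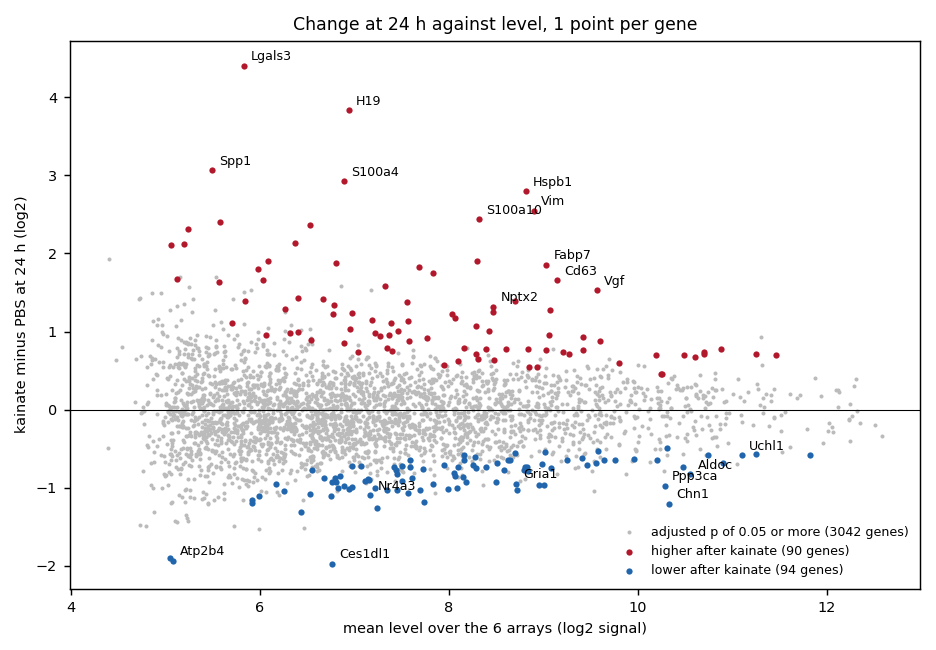
Change at 24 h of 3226 genes, 1 point per gene, as the log2 difference of kainate minus PBS (vertical axis) against the mean log2 signal of the 6 arrays (horizontal axis), n = 3 arrays per group. Red points are the 90 genes that were higher and blue points the 94 that were lower at an adjusted p under 0.05. The rises reach 4.41 for Lgals3, while the deepest fall is −1.97 for Ces1dl1.

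The trimmed mean signals of the 6 arrays lay between 150.1 and 150.2, as the deposited scaling had set them. Across probe sets, arrays of the same group correlated with r between 0.941 and 0.953 and arrays of different groups with r between 0.898 and 0.928. Of 9 measures of level and RNA quality, the smallest exact permutation p was 0.2, where 3 against 3 arrays cannot go below 0.1. That p belonged to the spike-in transcripts BioB, BioDn and CreX, which were 0.37, 0.36 and 0.31 higher on the kainate arrays (log2). PBS array 1 stood apart in several measures: its BioB level was 6.62, against 7.30 to 7.605 on the other arrays, its 3′ to 5′ log2 ratio was 2.29 for hexokinase, against 1.04 to 1.43, and −0.36 for Gapdh, against 0.02 to 0.07. The part of this array in the results was not tested beyond leaving it out. On the array there were 40 probe sets above the signal filter on all kainate arrays and no PBS array, and 16 of them passed; 47 were above it on all PBS arrays and no kainate array, and 6 passed. Such probe sets entered through the group in which they were high.

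Marker genes were summed by cell type to describe which cells the samples held. The sums of neuron, astrocyte, oligodendrocyte and endothelial markers were lower on the kainate arrays with no overlap between groups, but single genes carried part of this. The neuron markers, genes such as Snap25, Thy1 and Uchl1, summed to 9150 to 10390 on kainate arrays and 11310 to 11810 on PBS arrays. Astrocyte markers summed to 4894 to 5526 after kainate and 5733 to 5949 after PBS, oligodendrocyte markers to 6114 to 6553 and 7301 to 7590, and endothelial markers to 215 to 217 and 301 to 347. Of these 4 lists, 2 of 7 tested neuron markers passed as lower (Uchl1 and Camk2a), 1 of 6 astrocyte markers (Aldoc), 0 of 5 oligodendrocyte markers and 1 of 2 endothelial markers (Slco1a4). Without Aldoc, a split made after the values were seen, the astrocyte sum was 3831 to 4190 on kainate arrays and 3773 to 3925 on PBS arrays, and without Slco1a4 the endothelial sum was 85.98 to 105.1 and 70.1 to 81.2. Without Uchl1 the neuron sum was still lower, with 7320 to 8546 and 8749 to 8978, while without Mbp the oligodendrocyte sums overlapped (2402 to 2726 and 2662 to 2824). Among tested markers 2 of 7 for neurons, 3 of 6 for astrocytes, 2 of 5 for oligodendrocytes and 1 of 2 for endothelium had positive differences. Slc17a7, the vesicular glutamate transporter of excitatory neurons, stayed under a signal of 7 on all 6 arrays and was not tested. Microglia and macrophage markers summed to 209 to 230 on kainate arrays and 204 to 212 on PBS arrays. Of these, Itgam and Csf1r were at or below the signal filter on every array, and Ptprc, Aif1 and Cx3cr1 did not pass. Blood markers overlapped between groups (2463 to 3595 after kainate, 2877 to 3766 after PBS), and none of the T cell and granulocyte markers was tested, with sums of 48.1 to 74.4 and 24.9 to 68.2. Choroid plexus markers, led by Ttr, varied within both groups, from 2561 to 5526 on kainate arrays and from 1028 to 3442 on PBS arrays. Aqp1, a water channel of the choroid plexus, had 22.3, 56.6 and 30.6 on kainate arrays and 5.74, 4.03 and 1.23 on PBS arrays; it did not overlap between groups, but it was above the signal filter on 1 array and was not tested. The part of these marker sums in the results that follow was not tested.

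**Figure D2:**
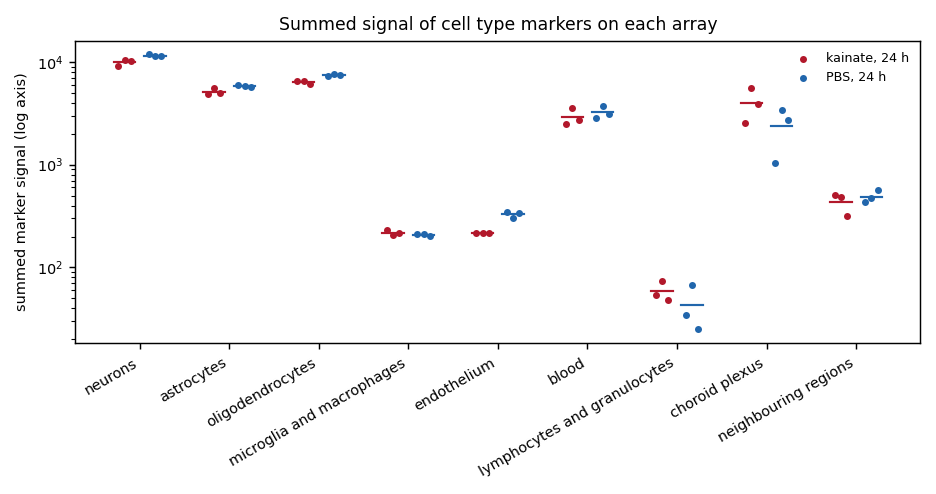
Summed signal of cell type markers (vertical log axis) on each of the 6 arrays, 3 kainate arrays in red left of 3 PBS arrays in blue, with group means as lines. Neuron, astrocyte, oligodendrocyte and endothelial sums are lower on every kainate array, for astrocytes and endothelium through Aldoc and Slco1a4, without which those sums are not lower (3831 to 4190 against 3773 to 3925, and 85.98 to 105.1 against 70.1 to 81.2).

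Promoter sequences of some genes that rose are printed here because they hold matches to 1 or more of the transcription factor motifs marked below. The windows run from 250 bases before to 50 bases after the annotated gene start, as listed by RefSeq for the rat build GRCr8, on the strand of the gene. Capitals mark matches to the AP-1 motif (TGANTCA), the cyclic AMP response element (CRE, TGACGTCA) and the E-box (CACGTG), searched on both strands. Cd63 (chr7:1921894-1922193, plus strand) has an E-box and an AP-1 match, Ifitm3 (chr1:205541709-205542008, minus strand) an AP-1 match, Igfbp2 (chr9:81864561-81864860, plus strand) an E-box, and Vgf (chr12:25276971-25277270, minus strand) a CRE and an E-box.
Cd63: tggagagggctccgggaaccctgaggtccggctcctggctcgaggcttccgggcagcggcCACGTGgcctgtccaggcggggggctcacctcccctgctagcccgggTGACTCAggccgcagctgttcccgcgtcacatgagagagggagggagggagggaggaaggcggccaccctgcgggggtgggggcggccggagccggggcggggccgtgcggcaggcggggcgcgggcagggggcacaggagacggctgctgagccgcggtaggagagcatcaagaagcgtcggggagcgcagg
Ifitm3: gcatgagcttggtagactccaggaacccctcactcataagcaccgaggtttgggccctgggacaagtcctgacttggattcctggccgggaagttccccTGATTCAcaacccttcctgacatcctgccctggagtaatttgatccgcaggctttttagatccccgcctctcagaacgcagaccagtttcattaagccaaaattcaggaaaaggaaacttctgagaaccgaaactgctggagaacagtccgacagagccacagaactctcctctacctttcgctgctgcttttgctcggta
Igfbp2: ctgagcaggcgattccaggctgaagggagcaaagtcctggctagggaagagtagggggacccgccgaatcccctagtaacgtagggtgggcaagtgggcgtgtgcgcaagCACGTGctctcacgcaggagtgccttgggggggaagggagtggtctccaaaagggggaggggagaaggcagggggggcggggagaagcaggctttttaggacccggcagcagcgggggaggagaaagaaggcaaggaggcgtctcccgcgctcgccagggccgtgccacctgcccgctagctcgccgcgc
Vgf: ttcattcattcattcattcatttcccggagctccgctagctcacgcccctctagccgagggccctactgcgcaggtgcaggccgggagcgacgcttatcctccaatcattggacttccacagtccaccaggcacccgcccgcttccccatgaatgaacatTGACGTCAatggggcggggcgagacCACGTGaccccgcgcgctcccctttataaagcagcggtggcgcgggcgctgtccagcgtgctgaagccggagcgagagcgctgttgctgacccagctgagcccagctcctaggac
A promoter was found for 71 of the 90 genes that rose, 73 of the 94 that fell and 2651 of the 3226 tested. The AP-1 motif was present in 7.04% of promoters of genes that rose, 4.11% of those that fell and 4.98% of all tested, against 7.33% of all 27457 promoters listed. The E-box was present in 19.7% of promoters of genes that rose, 8.22% of those that fell and 9.28% of all tested, and the CRE in 1.41%, 0% and 2.57%. The other motifs searched were a STAT motif (TTCNNNGAA; 11.3% of promoters of genes that rose and 6.30% of all tested), NF-kappaB (33.8% and 26.4%), interferon response (4.23% and 3.24%) and EGR (GCGGGGGCG; 5.63% and 6.00%). These shares are descriptions of the letters in the windows and were not tested.

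By the probe set standing for each gene, the largest rise was that of Lgals3, followed by H19, Spp1 and S100a4. Another probe set of Hspb1 (5.28) and another of H19 (4.75) had larger log2 differences than Lgals3. Lgals3, galectin 3, a sugar-binding protein of activated phagocytes, had signals of 247, 270.5 and 270.0 on the kainate arrays, against 4.97, 4.28 and 16.1 on the PBS arrays. Its groups lay far apart, with 2 of 3 PBS arrays below the floor of 10.9 that was set on all signals. All 3 PBS signals were below 35, so this gene entered the test through the kainate arrays, as did Spp1, Cyba, Mmp9, Oma1 and Psmb8 among the genes below. The difference was 4.41 ± 0.26 on the log2 scale (SE, limma adjusted p = 1.20e-05), a size that depends on that floor. S100a4, a calcium-binding protein of motile cells, had 259, 398 and 337 after kainate and 53.4, 37.1 and 40.2 after PBS, a 7.58-fold rise (log2 2.92 ± 0.22, adjusted p = 7.38e-05). S100a10, which forms a complex with annexin A2, had 640, 793 and 808 against 133, 147 and 132 and rose 5.41-fold (log2 2.44 ± 0.15, adjusted p = 1.49e-05). The largest changes were named only where the groups did not overlap, so their separation follows from that choice. Each of these genes passed in all 6 fits with an array left out.

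Spp1, osteopontin, a secreted matrix protein, had 123, 181 and 99.1 on kainate arrays and 5.88, 21.8 and 15.8 on PBS arrays, a log2 difference of 3.07 ± 0.37 (adjusted p = 0.00201) with 1 PBS array at the floor. H19, an imprinted non-coding RNA, had 453, 502 and 438 after kainate and 43.3, 73.7 and 9.17 after PBS, a log2 difference of 3.83 ± 0.55 (adjusted p = 0.00557), again with 1 PBS array at the floor. The other tested probe set of H19 had 4.75 (adjusted p = 4.90e-06), with every PBS array at the floor. Both genes passed whichever array was left out. Igf2, the neighbour that shares an imprinted locus with H19, had a log2 difference of 0.03 and did not pass. Ttr, the choroid plexus transport protein, had 2301, 5108 and 3606 on the kainate arrays and 792, 3126 and 2442 on the PBS arrays, with groups that overlap, and Aqp1 was higher on every kainate array, as given above; the part of these choroid plexus genes in the H19 values was not tested.

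Pdlim4 and Oma1 were among the 12 largest rises and belonged to none of the gene lists. Pdlim4, a protein with PDZ and LIM domains that binds the actin cytoskeleton, had 197, 281 and 166 after kainate and 59.1, 71.3 and 15.99 after PBS (log2 2.36 ± 0.49, adjusted p = 0.0245). Oma1, a protease of the inner mitochondrial membrane, had 72.5, 68.5 and 90.4 against 8.04, 26.1 and 19.3 (log2 2.12 ± 0.41, adjusted p = 0.0199). Neither call held with every array left out, with adjusted p up to 0.0646 for Pdlim4 (without kainate array 1) and up to 0.0930 for Oma1 (without kainate array 3).

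**Figure D3:**
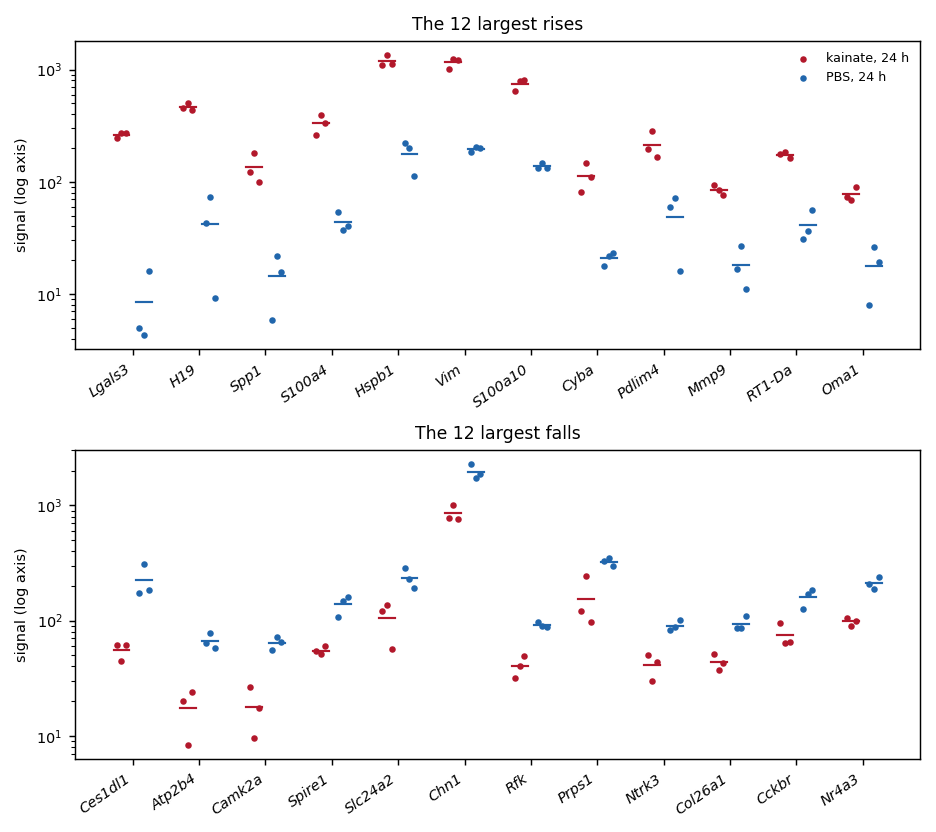
Signal of the 12 genes with the largest rise (upper panel) and the 12 with the largest fall (lower panel) on each array (vertical log axis), 3 kainate arrays in red left of 3 PBS arrays in blue, with group means as lines. Genes were chosen only where the groups did not overlap, which held for 31.4% of all genes. Lgals3, H19, Spp1 and Oma1 have PBS arrays below a signal of 10, and Atp2b4 and Camk2a kainate arrays below it.

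Among listed genes of reactive astrocytes most tested members passed as higher, where 2.79% of all genes were called higher. The list had 24 genes, 16 of them on the array and 12 tested, and was chosen with earlier results of these data known. Gfap, chosen as an astrocyte marker, had no probe set under its symbol alone and was not tested. In RNA of the whole tissue the cells in which these genes rose cannot be told. Of 12 tested members 7 passed as higher and 0 as lower, with a median log2 change of 0.98 against −0.06 over all genes, and between 4 and 7 passed with an array left out (4 without kainate array 1). Vim, the intermediate filament vimentin, had 1006, 1252 and 1216 on kainate arrays and 186, 206 and 200.1 on PBS arrays, a 5.85-fold rise (log2 2.55 ± 0.14, adjusted p = 6.23e-06). Hspb1, a small heat shock protein, had 1103, 1356 and 1112 against 220, 200.2 and 113 and rose 6.94-fold (log2 2.79 ± 0.24, adjusted p = 0.000141). Of its 4 tested probe sets 3 passed, this one and others with 4.11 and 5.28, and the remaining one had −0.07. In both genes every kainate array was far above every PBS array, and no left-out array ended the call. The remaining members that rose were S100a10, the metalloproteinase inhibitor Timp1 (log2 1.90), the hyaluronan receptor Cd44 (1.81), the protease inhibitor Serpina3n (1.22) and the small heat shock protein Cryab (0.74). Fgf2 (0.36), Nes (−0.18), Cp (−0.29), Gap43 (−0.57) and Emp1 (−0.9979) did not pass.

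The genes that support resting astrocyte functions gave another picture, where 2.91% of all genes were called lower and 2.79% higher. Of 14 astrocyte markers and glutamate uptake genes 3 passed as lower and 1 as higher, with a median of −0.42, and between 1 and 4 were lower with an array left out (1 without kainate array 1). Fabp7, the brain fatty acid binding protein of radial glia and astrocytes, had 945, 1075 and 963 on kainate arrays and 258, 314 and 256 on PBS arrays, a 3.61-fold rise (log2 1.85 ± 0.14, adjusted p = 7.38e-05). Aldoc, the aldolase of astrocytes, had 1063, 1335 and 1013 against 2024, 2044 and 1945 and fell 1.78-fold (log2 −0.83 ± 0.13, adjusted p = 0.00867). Both were separated completely between groups and passed in all 6 fits with an array left out. Another tested probe set of Aldoc had −0.49 and did not pass (limma adjusted p = 0.055). S100b, a calcium-binding protein of astrocytes, and the neurotensin receptor Ntsr2 fell by 0.58 and 0.68 on the log2 scale. The glutamate transporters Slc1a2 (0.43) and Slc1a3 (0.08) and glutamine synthetase, Glul (0.16), did not pass.

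Genes that phagocytes use rose in part, where 2.79% of all genes were called higher, while the defining microglial surface genes did not pass. Of 12 tested members of the phagocyte and microglial list 4 rose and 0 fell (median 0.39), and 3 or 4 passed with an array left out (3 without kainate array 1). Cyba, the membrane subunit of the NADPH oxidase, had 80.9, 149 and 111 on kainate arrays and 17.9, 21.98 and 23.1 on PBS arrays, a 5.27-fold rise (log2 2.40 ± 0.32, adjusted p = 0.00330). Cd63, a tetraspanin of late endosomes and lysosomes, had 1078, 899 and 1052 against 364, 309 and 287 and rose 3.16-fold (log2 1.66 ± 0.14, adjusted p = 0.000167). The groups of both genes were fully apart, and no left-out array ended either call. Tspo, the mitochondrial translocator protein, and the tetraspanin Cd9 rose by 0.99 and 0.96 on the log2 scale; none of these 4 genes is restricted to microglia. Lyz2 (0.67), Aif1 (0.56), Cd4 (0.22), Lyn (0.04), Cx3cr1 (−0.07), Cd14 (−0.14), Cd86 (−0.32) and Ptprc (−0.37) did not pass.

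Complement and antigen presentation contributed single strong members, where 2.79% of all genes were called higher. C1qb, a chain of the complement component C1q, had 360, 537 and 381 after kainate and 149, 108 and 119 after PBS, a 3.37-fold rise (log2 1.75 ± 0.20, adjusted p = 0.00144). It was the 1 of 8 complement genes that passed, with every kainate array above every PBS array and in every leave-one-out fit. Of 18 genes of antigen presentation and the immunoproteasome 3 rose and 0 fell (median 0.42), 2 or 3 with an array left out (2 without kainate array 1). RT1-Da, an alpha chain of class II histocompatibility molecules, had 176, 183 and 163 against 30.6, 36.2 and 56.3 and rose 4.38-fold (log2 2.13 ± 0.25, adjusted p = 0.00167). Psmb8, a catalytic subunit of the immunoproteasome, had 57.6, 80.6 and 71.9 against 13.9, 12.2 and 24.3 (log2 2.11 ± 0.42, adjusted p = 0.0205, but 0.0897 without kainate array 3). RT1-DMb, which loads peptides on class II molecules, rose by 1.03. RT1-Db1, a class II beta chain, had a difference of −0.84 and did not pass; RT1 genes are similar to each other, and their probe sets may share signal.

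No cytokine, chemokine or receptor gene passed by its standing probe set in limma, with 0 of 15 tested. Of 41 listed genes 35 were on the array, of which those outside the 15 did not pass the signal filter. At an unadjusted p under 0.05 there were 3 of the 15, where 818 of all 3226 genes were. In the fit over all 30 arrays 2 passed, where 722 of 5332 probe sets did. Csf1, a growth factor of macrophages, came closest with 81.9, 26.3 and 24.3 on kainate arrays and 73.6, 144 and 120.2 on PBS arrays (log2 −1.53, adjusted p = 0.0795), and its groups overlapped. Ccl2, a chemokine that attracts monocytes, had a difference of 1.51 there and did not pass, while another of its probe sets, chosen after its value was seen, passed with 2.31. Of 16 genes of STAT, NF-kappaB and interferon responses, 2 rose, where 2.79% of all genes were called higher. Ifitm3, an interferon-induced membrane protein, had 394, 386 and 379 after kainate and 108, 125 and 96.1 after PBS, a 3.54-fold rise (log2 1.82 ± 0.16, adjusted p = 0.000167) that held with each array left out. Irf1, an interferon-regulated transcription factor, had 81.3, 68.2 and 82.3 against 42.0, 32.4 and 33.1 (log2 1.11 ± 0.26, adjusted p = 0.0391), and with any 1 array left out it no longer passed (up to 0.128, without kainate array 3). Mx1 and Oas1a, other interferon-induced genes, had −0.90 and −0.21 and did not pass. For Nfkbia a probe set other than the standing one, named after its value was seen, passed as higher by 1.75 (limma adjusted p = 0.0161).

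Lysosomal, annexin and galectin genes rose in small numbers, where 2.79% of all genes were called higher. Of 19 lysosomal genes 3 rose and 0 fell (median 0.32), between 1 and 3 with an array left out (1 without kainate array 3). Besides Cd63 these were the protease Ctsb, cathepsin B, with 676, 854 and 763 on kainate arrays and 534, 452 and 394 on PBS arrays (log2 0.74 ± 0.16, adjusted p = 0.0259), and the cathepsin inhibitor Cstb (log2 0.72). The groups did not overlap for Ctsb, though its adjusted p was 0.101 without PBS array 3. Anxa2 and Anxa5, membrane-binding annexins, rose by 0.75 ± 0.19 and 0.62 ± 0.14 among 6 annexins, with adjusted p of 0.0482 and 0.0313. Neither passed in any fit with an array left out (up to 0.125 without kainate array 1 and 0.105 without PBS array 3). Lgals1, galectin 1, had 137, 239 and 166 against 76.6, 67.4 and 65.0 and rose 2.53-fold (adjusted p = 0.0122, but 0.0509 without PBS array 2); it was the 1 galectin of 5 besides Lgals3 that passed.

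Some genes of matrix proteolysis and motility rose, where 2.79% of all genes were called higher and 2.91% lower. Of 42 extracellular matrix genes 5 rose and 1 fell, with a median of 0.07, and between 3 and 5 rose with an array left out (3 without kainate array 1). Mmp9, a gelatinase, had 93.0, 84.0 and 76.6 on kainate arrays and 16.7, 26.8 and 11.01 on PBS arrays, a 4.95-fold rise (log2 2.31 ± 0.40, adjusted p = 0.0138, but 0.0599 without kainate array 1). Ncan, the proteoglycan neurocan of perineuronal matrix, and Plat, tissue plasminogen activator, rose by 1.43 and 0.79. Mmp14, a membrane-bound metalloproteinase, fell by 1.00, with 70.5, 117 and 62.3 against 152, 186 and 146. The structural collagens Col1a1 (−0.08), Col1a2 (−0.59), Col3a1 (−0.52), Col5a1 (0.24) and Col5a2 (0.28) did not pass. Of 23 actin and motility genes 4 rose and 0 fell (median 0.29), 1 to 3 with an array left out (1 without PBS array 3). Cnn3, calponin 3, had 634, 629 and 771 against 277, 246 and 251.4 (log2 1.39 ± 0.14, adjusted p = 0.000590), and Capg, an actin filament capping protein, 94.1, 123 and 151 against 35.6, 56.7 and 58.7 (log2 1.30 ± 0.27, adjusted p = 0.0259). Cnn3 passed whichever array was left out, and Capg reached 0.0964 without kainate array 3.

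Peptide precursors formed a group in which 6 of 25 genes rose and 0 fell, where 2.79% of all genes were called higher. Their median was 0.27, and 3 to 5 rose with an array left out (3 without kainate array 1). Vgf, a secreted peptide precursor induced by neuronal activity, had 1378, 1207 and 1286 on kainate arrays and 455, 467 and 418 on PBS arrays, a 2.89-fold rise (log2 1.53 ± 0.12, adjusted p = 9.70e-05). Crhbp, which binds corticotropin-releasing hormone, had 114, 85.0 and 162 against 30.2, 57.9 and 28.2 (log2 1.66 ± 0.34, adjusted p = 0.0245, but 0.0945 without kainate array 3). Vgf held with each array left out, and the lowest kainate array was above the highest PBS array for both genes. Trh, thyrotropin-releasing hormone, had 174, 143 and 187 against 61.1, 62.8 and 63.6 and rose by 1.42 on the log2 scale. The precursors of substance P (Tac1), enkephalin (Penk) and neuropeptide Y (Npy) rose by 1.07, 0.98 and 0.77. Those of cholecystokinin (Cck, −0.09), dynorphin (Pdyn, −0.24), somatostatin (Sst, 0.33) and corticotropin-releasing hormone (Crh, 0.29) did not pass by their standing probe sets. Another probe set of Sst, named after its value was seen, passed as higher by 0.58 (limma adjusted p = 0.0199).

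Growth factors moved in both directions, 3 of 37 higher and 2 lower with a median of 0.08. Among all genes 2.79% were called higher and 2.91% lower. Igfbp2, which binds insulin-like growth factors, had 484, 611 and 541 after kainate and 216, 259 and 216 after PBS, a 2.37-fold rise (log2 1.24 ± 0.15, adjusted p = 0.00206) seen with all 3 of its tested probe sets and with each array left out. Bdnf, a neurotrophin induced by activity, had 155, 149 and 175 against 68.2, 107 and 94.5 and rose by 0.86 (adjusted p = 0.0435). With any 1 array left out 2 genes of this list passed as higher, H19 and Igfbp2 and thus not Bdnf, and 0 to 3 as lower (0 without kainate array 1). Ntf3, neurotrophin 3, fell by 0.76, with 173, 154 and 162 against 238, 303 and 290.0. Its receptor Ntrk3 fell with it, with 50.6, 30.1 and 43.7 against 82.3, 88.4 and 101 (log2 −1.16 ± 0.27, adjusted p = 0.0371), though no fit with an array left out called Ntrk3 (up to 0.136, without PBS array 3). Ntrk2, the receptor for Bdnf, had a difference of 0.09 and did not pass.

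Fatty acid and lipid carriers had 5 of 30 members higher and 0 lower, where 2.79% of all genes were called higher. Their median was −0.07, and 2 to 5 rose with an array left out (2 without kainate array 1). Plin2, a coat protein of lipid droplets, had 130.2, 143 and 121 on kainate arrays and 63.2, 23.0 and 29.6 on PBS arrays (log2 1.91 ± 0.35, adjusted p = 0.0161, but 0.0628 without PBS array 3). Fabp5, a fatty acid binding protein, the lipocalin Apod and the mitochondrial dehydrogenase Acadl rose by 0.67, 0.64 and 0.89, while Apoe (−0.08) and Clu (0.12) did not pass. Sterol synthesis went the other way, with 2 of 15 genes lower, against 2.91% of all genes, and 0 higher, and a median of −0.34. Sqle, squalene epoxidase, had 329, 419 and 301 against 586, 583 and 565 (log2 −0.74 ± 0.15, adjusted p = 0.0245, but 0.0958 without PBS array 2). Fdps, farnesyl diphosphate synthase, fell by 0.56 (adjusted p = 0.0469), but its 3 tested probe sets differed, and their mean gave 0.001 (adjusted p = 0.997).

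The calls among chaperone, antioxidant and proteasome genes were all as higher, where 2.79% of all genes were called higher. Of 30 heat shock and endoplasmic reticulum stress genes 3 rose and 0 fell (median 0.21), Hspb1, Cryab and Hspa9. Hspa9, a mitochondrial chaperone, had 283, 183 and 283 after kainate and 155, 90.7 and 105 after PBS (log2 1.11 ± 0.25, adjusted p = 0.0333), and its mean over 3 probe sets did not pass (0.59, adjusted p = 0.260). Gpx1, glutathione peroxidase 1, was the 1 of 32 antioxidant genes that passed, with 674, 925 and 939 against 351, 406 and 291 (log2 1.27 ± 0.18, adjusted p = 0.00482), and it held with each array left out. Hmox1 (−0.19), Sod2 (−0.24) and Hspa1a (0.15), known for their induction by stress, did not pass. Proteasome subunits Psmb3 and Psmc4 rose by 0.78 and 0.57 of 19 tested, with at most 1 of both left when an array was left out. Of 25 cell cycle genes Ccnd1, cyclin D1 (log2 1.15), and Pcna, the sliding clamp of DNA replication (0.78), rose, and Plk1, a mitotic kinase, fell by 0.92. With an array left out 0 to 2 rose and 0 to 2 fell. Of 4 tested Ccnd1 probe sets 2 passed as higher, and the others had 0.38 and −0.008.

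Genes of ribosomal proteins, looked at after their values were seen, were among the rises. Of 38 tested, 11 rose (28.95%, against 2.79% of all genes) and 0 fell, with a median of 0.26, and 31 differences were positive. The 11 lay between Rpsa (0.45) and Rpl18 (0.93), and 4 to 10 passed with an array left out. Without the trend of the spread with intensity, 0 passed. Ribosomal protein genes have many near-identical copies, so the signal of each gene is uncertain. Their medians at 1, 6, 72 and 240 h were 0.03, 0.05, 0.06 and −0.17.

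Genes of calcium signalling were called in 1 direction, as lower, where 2.91% of all genes were, though many were near the threshold. Of 22 calcium-dependent kinases and phosphatases 5 fell and 0 rose (median −0.16), and of 21 calcium buffers, sensors, pumps and stores 6 fell and 0 rose (median −0.31). With an array left out 1 to 5 of the kinases and phosphatases passed (1 without PBS array 2) and 0 to 5 of the buffers and pumps (0 without PBS array 1). Ppp3ca, the catalytic subunit of the phosphatase calcineurin, had 921, 1021 and 750 on kainate arrays and 1833, 1606 and 1822 on PBS arrays, a 1.97-fold fall (log2 −0.98 ± 0.14, adjusted p = 0.00548) in all 6 fits with an array left out. Itpr1, the inositol trisphosphate receptor that releases stored calcium, had 161, 166 and 113 against 333, 277 and 278 (log2 −1.03 ± 0.19, adjusted p = 0.0161, but 0.0550 without PBS array 3). Both groups of each gene were apart by more than the spread within them. Itpka, an inositol kinase of dendritic spines, Camkv, a kinase-like protein, and Nrgn, neurogranin, which binds calmodulin, fell by 0.87, 0.68 and 0.57.

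The deepest of these values came from weak probe sets. Camk2a, a kinase of synaptic plasticity, had 26.5, 9.62 and 17.4 on kainate arrays and 55.8, 71.5 and 64.9 on PBS arrays (log2 −1.90 ± 0.44, adjusted p = 0.0365). Atp2b4, a calcium pump of the plasma membrane, had 19.8, 8.31 and 23.9 against 64.0, 77.4 and 58.2 (log2 −1.94 ± 0.42, adjusted p = 0.0302). Each was above the signal filter on the PBS arrays alone, had 1 kainate array at the floor and passed in 2 of 6 fits with an array left out (up to 0.140 and 0.132, both without PBS array 2). Stronger probe sets gave smaller falls: the pumps Atp2b2 and Atp2a2 fell by 0.85 and 0.68 and the neuronal calcium sensors Hpca and Vsnl1 by 0.65 and 0.54. Camk2b (−0.19), Camk2g (−0.25), the calmodulin gene Calm2 (−0.04) and the buffers Calb1 (−0.37) and Pvalb (−0.55) did not pass.

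Receptors and channels had at most 1 call in each list, where 2.91% of all genes were called lower. Of 14 ionotropic glutamate receptor subunits, the targets of kainate among them, 1 fell: Gria1, an AMPA receptor subunit, had 247, 307 and 358 after kainate and 608, 548 and 589 after PBS, a 1.93-fold fall (log2 −0.95 ± 0.16, adjusted p = 0.0121, but 0.0527 without PBS array 3). The other tested probe sets of Gria1 had −0.52 and −0.57 and did not pass. Another AMPA receptor subunit, Gria2, did not pass by its standing probe set, but a further probe set, named after its value was seen, was lower by 0.74 (adjusted p = 0.0371). The kainate receptor subunits Grik2 (0.11), Grik4 (−0.49) and Grik5 (0.47) and the NMDA receptor subunit Grin1 (0.31) did not pass. None of 15 metabotropic receptors and scaffolds passed in limma (2 at an unadjusted p under 0.05, 0 in the fit over 30 arrays), the lowest adjusted p being 0.122 for Grm7, with 92.5, 114 and 124 against 157, 158 and 148 (log2 −0.50). Among all genes 818 of 3226 had an unadjusted p under 0.05. Gabra5, a GABA receptor subunit of the hippocampus, had 321, 325 and 300 against 496, 502 and 479 (log2 −0.64 ± 0.13, adjusted p = 0.0208, but 0.0894 without PBS array 2). Its other tested probe set had −0.37 and did not pass, nor did the mean of both in limma (adjusted p = 0.115). Gabra5 was the 1 of 17 GABA genes that passed, and Gad1 (−0.31) and Gad2 (0.01), which make GABA, did not. Cnr1, the cannabinoid receptor, and Kcnq3, a subunit of the M-type potassium channel, fell by 0.77 (1 of 27) and 0.97 (1 of 17), each in 1 of 6 fits with an array left out (up to 0.136 and 0.144 without PBS array 3).

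Of 14 sodium and calcium channel genes 0 passed in limma, with a median of −0.43. Of these, 6 were lower and 1 higher at an unadjusted p under 0.05, and 5 passed as lower in the fit over all 30 arrays. Over all genes 818 of 3226 had an unadjusted p under 0.05, and 722 of 5332 probe sets passed in that fit. Another probe set of Cacna1a, a P/Q-type calcium channel, passed as lower by 1.06 (adjusted p = 0.0368) and was named after its value was seen; 40 genes in all were called only by a probe set other than the standing one. Cacna1g, a T-type calcium channel, came closest, with 144, 125 and 80.0 on kainate arrays and 177, 211 and 223 on PBS arrays (log2 −0.84, adjusted p = 0.0621). Cckbr, the brain cholecystokinin receptor, was among the 12 largest falls, with 95.4, 63.4 and 65.6 against 126, 171 and 183 (log2 −1.10 ± 0.23, adjusted p = 0.0254, but 0.103 without PBS array 3); its other tested probe set had 0.42, and the mean of both gave −0.34 (adjusted p = 0.354). Slc24a2, an exchanger of sodium, calcium and potassium, had 120, 136 and 56.5 against 286, 230.0 and 193 (log2 −1.26 ± 0.31, adjusted p = 0.0466, but 0.128 without PBS array 2). Groups did not overlap for Cacna1g, nor for Cckbr and Slc24a2, which were named among the largest falls under that condition. They did not overlap for 31.4% of all genes.

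Synaptic vesicle genes did not pass in either direction, 0 of 30 in limma with a median of −0.01, 3 being lower at an unadjusted p under 0.05 and 3 in the fit over 30 arrays. Among all genes 818 of 3226 had an unadjusted p under 0.05, and 722 of 5332 probe sets passed in that fit. Vamp2, a SNARE protein of vesicles, came closest with 1510, 2378 and 1268 on kainate arrays and 2849, 2635 and 2601 on PBS arrays (log2 −0.70, adjusted p = 0.0692), and the vesicle proteins Syp (0.09), Syn1 (0.24) and Snap25 (−0.31) did not pass. In the 18 neuron markers 4 fell, against 2.91% of all genes, and 0 rose (median −0.31). With an array left out 0 to 4 fell (0 without kainate array 3). Uchl1, an abundant neuronal deubiquitinase, had 1830, 1848 and 1704 after kainate and 2835, 2662 and 2557 after PBS (log2 −0.58 ± 0.10, adjusted p = 0.0149, but 0.0541 without PBS array 2). Its other tested probe sets had −0.23 and −0.30 and did not pass, nor did the mean of its probe sets in limma (adjusted p = 0.0593). Of 25 axon and cytoskeleton genes Cntn1, an adhesion protein of axons, Nefh, a neurofilament subunit, and Map1a, a microtubule protein, fell by 0.92, 0.74 and 0.62, and 0 to 6 passed as lower with an array left out (0 without kainate array 1). For Nefh another tested probe set had 0.29, and the mean of both gave −0.23 (adjusted p = 0.425). The summed neuron markers were lower on the same arrays, as given above, and their part in these falls was not tested.

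Chn1, chimaerin 1, a regulator of the small GTPase Rac in neurons, had the clearest fall. Its signals were 783, 1009 and 770 on kainate arrays and 2274, 1737 and 1877 on PBS arrays, a 2.30-fold fall (log2 −1.20 ± 0.15, adjusted p = 0.00244) that both of its tested probe sets showed and that held in all 6 fits with an array left out. Ces1dl1, a carboxylesterase of a family of close relatives, had 61.6, 44.3 and 61.0 against 175, 311 and 185 (log2 −1.97 ± 0.26, adjusted p = 0.00323) and also held. Of the 12 largest falls, Chn1, Ces1dl1 and Nr4a3 held with each array left out and the others did not. Spire1, an actin nucleator, had 53.9, 51.4 and 59.6 against 108, 148 and 159 (log2 −1.31 ± 0.22, adjusted p = 0.0102, but 0.0553 without PBS array 3). Rfk, riboflavin kinase, Prps1, which makes the precursor of nucleotides, and Col26a1, a collagen, fell by 1.19, 1.18 and 1.11, with adjusted p of 0.0261, 0.0464 and 0.0295 that reached 0.0979, 0.139 and 0.124 with an array left out (PBS arrays 2, 2 and 3).

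The list of immediate early and related transcription factors was called more often as lower than as higher. Of 20 tested factors on this list 3 fell and 1 rose, where 2.91% of all genes were called lower and 2.79% higher. Their median was −0.23, and 1 or 2 fell with an array left out. Nr4a3, an orphan nuclear receptor, had 106, 90.4 and 99.5 on kainate arrays and 208, 189 and 238 on PBS arrays, a 2.14-fold fall (log2 −1.10 ± 0.17, adjusted p = 0.00848) in all 6 fits with an array left out. Its other tested probe set had −1.15 and did not pass, nor did the mean of both in limma (adjusted p = 0.0593). Arc, a synaptic protein of the activity-regulated effector list, had 249, 223 and 250.3 against 384, 390.1 and 399 (log2 −0.70 ± 0.14, adjusted p = 0.0197, but 0.0798 without PBS array 3). In both genes the highest kainate array was below the lowest PBS array. Egr1, a zinc finger factor, and Mafk, a partner of AP-1 related factors, fell by 0.64 and 0.88, while Fos (0.01), Junb (−0.22) and Jun (0.08) did not pass. The 1 listed factor that rose was Dbp, which is clock-controlled and not an immediate early gene. It had 321, 302 and 291 against 168, 88.8 and 107 (log2 1.38 ± 0.23, adjusted p = 0.0102).

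Some other activity-regulated genes were higher. Nptx2, neuronal pentraxin 2, which gathers AMPA receptors at synapses, had 519, 641 and 528 after kainate and 235, 253 and 191 after PBS, a 2.49-fold rise (log2 1.32 ± 0.16, adjusted p = 0.00206) in every leave-one-out fit. Ptgs2, cyclooxygenase 2, had 107, 76.4 and 100.2 against 45.3, 53.7 and 46.1 (log2 0.95 ± 0.23, adjusted p = 0.0444), with the other tested probe set on the opposite side of 0 and an adjusted p of 0.133 without kainate array 3. Of the 16 genes on this list these 2 rose and Arc fell, with a median of −0.08. Among all genes 2.79% were called higher and 2.91% lower.

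Vessel, myelin and blood genes had few or no calls, where 2.91% of all genes were called lower and 2.79% higher. Slco1a4, an organic anion transporter of the blood-brain barrier, had 129.8, 129.4 and 110 on kainate arrays and 277, 220 and 256 on PBS arrays, a 2.04-fold fall (log2 −1.03 ± 0.17, adjusted p = 0.0101; at most 0.0499 with an array left out). It was the 1 of 14 endothelial and barrier genes that passed; Pecam1 (0.42) and Tjp1 (−0.30) did not. In limma none of 12 myelin genes passed, Pmp22 being closest (0.52, adjusted p = 0.0637), and none of 12 blood cell genes, Slc4a1 being closest (−0.81, adjusted p = 0.0547). At an unadjusted p under 0.05 there were 3 in each list, and in the fit over 30 arrays 1 myelin and 3 blood genes. Over all genes 818 of 3226 had an unadjusted p under 0.05, and 722 of 5332 probe sets passed in that fit. Of 10 choroid plexus and neighbouring region genes 0 passed in limma, also at an unadjusted p under 0.05 and in the fit over 30 arrays, the lowest adjusted p being 0.230 for Hcrt (−0.51).

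Energy metabolism lists had calls at about the share of all genes called lower, 2.91%. Cox4i2, an isoform of a cytochrome oxidase subunit, was the 1 of 35 oxidative phosphorylation genes that passed, lower by 1.03 (adjusted p = 0.0269, but 0.106 without PBS array 3). Aldoc was the 1 of 35 genes of glycolysis and the citrate cycle, although 7 passed as lower in 1 of the fits with an array left out. Probe sets other than the standing ones of the glycolysis genes Eno1 and Pfkp passed as higher by 0.45 and 0.69. Their limma adjusted p were 0.0371 and 0.0483, and both were named after their values were seen. Of 24 genes of polyamine, nucleotide and amino acid metabolism Glud1, glutamate dehydrogenase, fell by 0.64 (adjusted p = 0.0371), while the mean of its 3 probe sets gave −0.02. Of 13 cell death regulators the apoptosis promoters Diablo and Bok fell by 0.72 and 0.58, and neither passed with any array left out (up to 0.128 and 0.138, both without PBS array 2).

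**Figure D4:**
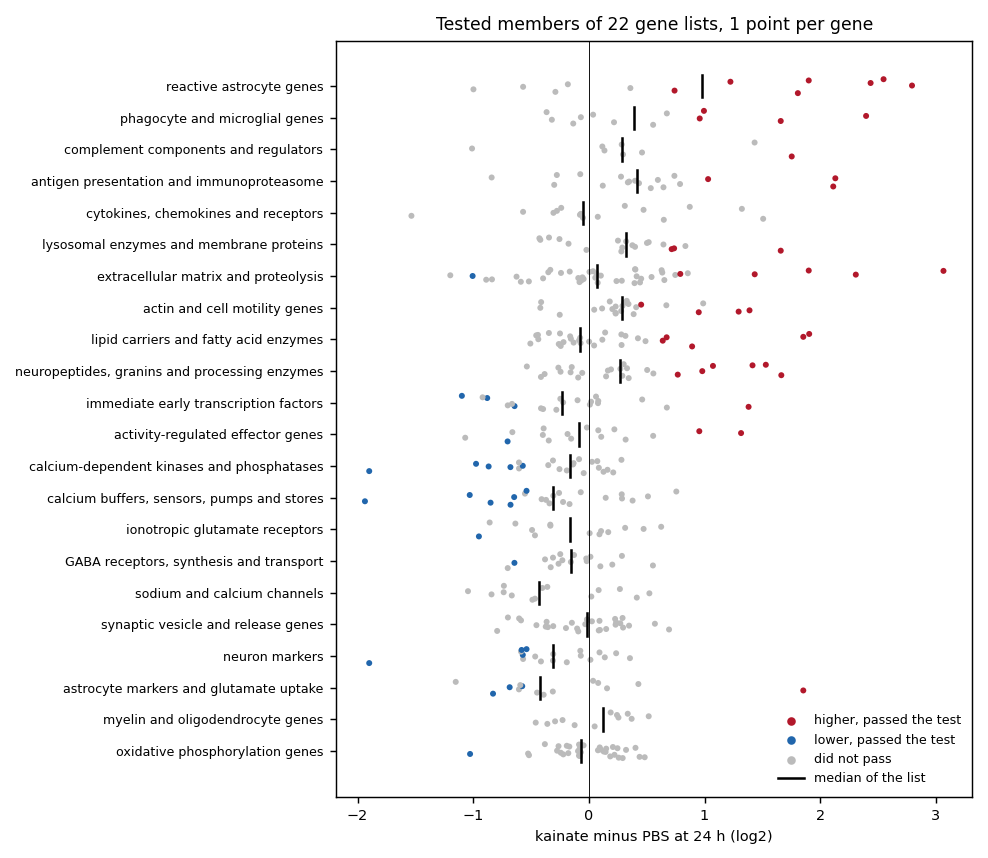
Log2 change of kainate minus PBS at 24 h (horizontal axis) of the tested members of 22 gene lists, 1 point per gene, red where higher and blue where lower at an adjusted p under 0.05, grey otherwise, with the list median as a black bar. Reactive astrocyte genes have 7 of 12 members in red, and the calcium lists have 5 of 22 and 6 of 21 in blue.

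The effect at 24 h was set against the mean of the effects at 1, 6, 72 and 240 h, each against the PBS arrays of its own time, in a weighted limma fit over all 30 arrays. It differed for 248 probe sets (4.65%), 113 more positive and 135 more negative at 24 h, and 158 of these also passed at 24 h. By gene, 153 differed (4.74%). In the same fit 15 genes passed at 1 h (0.465%). There were 230 after 6 h (7.13%) and 333 after 24 h (10.3%), then 81 after 72 h (2.51%) and 1 after 240 h (0.031%). All times used the probe sets that passed the signal filter on the 24 h arrays. Group weights ran from 0.631 (kainate at 1 h) to 2.07 (PBS at 72 h), lower where the spread was larger. The part of the filter and of the spread in these counts was not tested. The 90 genes chosen as higher at 24 h had median changes of 0.08, 0.20, 1.05, 0.21 and −0.07 at 1, 6, 24, 72 and 240 h. Of them 2, 29, 11 and 0 passed as higher at 1, 6, 72 and 240 h. The 94 chosen as lower had medians of −0.01, −0.06, −0.83, −0.22 and 0.01 at these times, and 0, 3, 5 and 0 passed as lower at 1, 6, 72 and 240 h. In the opposite direction, 3 of these 94 passed as higher at 1 h and 3 at 6 h, and 1 of the 90 passed as lower at 6 h. Since these genes were chosen by their values at 24 h, the peak of their medians there is a description.

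Single genes had different courses. S100a4 and Fabp7 had changes of −0.19 and 0.12 at 6 h and of 1.45 and 0.62 at 72 h, where both passed (adjusted p = 0.00125 and 0.00317). RT1-Da, Gpx1 and Cyba had −0.26, −0.21 and −0.17 at 6 h and did not pass at any other time. Lgals3, Hspb1, Spp1, H19 and Plin2 had passed at 6 h with 1.58, 1.00, 1.30, 2.27 and 1.35, below their values at 24 h, and C1qb and Ifitm3 with 1.19 and 1.41. Mmp9 and Pdlim4 had 2.53 and 2.70 at 6 h, close to their values at 24 h. Their 24 h effects were 1.53 ± 0.50 and 1.68 ± 0.64 above the mean of the other times. They were not shown to differ from it (limma adjusted p = 0.0754 and 0.139). Nptx2 and Ptgs2 had changes of 2.77 and 3.03 at 6 h, above their values at 24 h, a difference whose test is not reported here.

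Arc and Nr4a3 changed sign. Arc had 2.11 at 1 h and 1.86 at 6 h, and Nr4a3 had 1.398 and 0.99, all of which passed, before both were lower at 24 h. At 72 h Nr4a3 still passed as lower (−0.48, limma adjusted p = 0.0140), while Arc had −0.41 and did not pass. The 24 h effects of Arc and Nr4a3 were 1.59 ± 0.19 and 1.46 ± 0.17 below the mean of the other times (adjusted p = 3.25e-06 and 1.58e-06). That mean includes their rises at 1 and 6 h. Dbp had fallen at 6 h (−1.34) and was higher at 24 h. Ppp3ca, Chn1, Aldoc and Itpr1 had changes between −0.30 and 0.32 at each of the other times and passed at none of them. Gria1 had −0.22, −0.19, −0.38 and −0.60 at 1, 6, 72 and 240 h without passing, and its 24 h effect was not shown to differ from their mean (adjusted p = 0.139).

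**Figure D5:**
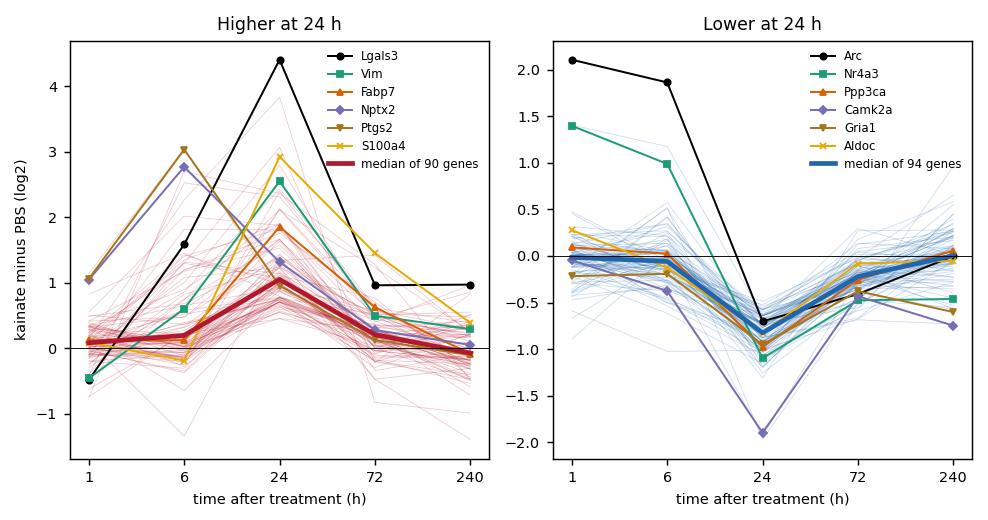
Log2 change of kainate minus PBS at 1, 6, 24, 72 and 240 h (horizontal axis, times evenly spaced) of the 90 genes higher at 24 h (left) and the 94 lower (right), 3 arrays per group and time, with 1 thin line per gene, the median as a thick line and 6 genes of each panel marked. Medians are 1.05 and −0.83 at 24 h and lie between −0.22 and 0.21 at the other times; Nptx2, Ptgs2, Arc and Nr4a3 are above 0.9 at 1 and 6 h.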

How the data were processed

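Rat hippocampal RNA was measured on Affymetrix arrays, 1 per sample. The values are signal intensities on a linear scale, as the authors deposited them in the series' value table; the sources used here do not say how they were computed. Trimmed means were near 150 on all 6 arrays. Values were scaled to a common 2% trimmed mean, floored at the 20th percentile and log2 transformed, and probe sets above 35 on at least 3 of 6 arrays were kept. Differences were tested in limma 3.58.1 (R 4.3.3, eBayes with an intensity trend, Benjamini-Hochberg over 5332 probe sets), and checked on simulated data. Of these, 4445 probe sets had 1 gene symbol in the platform annotation, 210 several and 677 none. A gene was represented by its tested probe set with the highest mean.

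Genes named by rule were the 12 largest called rises and 12 largest called falls without overlap, the 2 called members of each list with the largest change, for a list of at least 5 tested members without a call the member with the lowest adjusted p, and the 5 most positive and 5 most negative genes called both at 24 h and for the time difference. Further list members and ribosomal protein genes were named after their values were seen. Members and lists were chosen with earlier results of these data known. Alternatives changed the arrays fitted, scaling, floor, filter, variance model, replicate block and arrays left out.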

Additional observations from a re-analysis of the deposited data

Results flagged for a closer look

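For 42 of the 74 genes named by rule, the effect of kainate at 24 h differed from the mean of its effects at 1, 6, 72 and 240 h by the test of that difference in limma over 30 arrays, 24 in the positive and 18 in the negative direction. Over all genes the share was 4.74%, and 10 of the 74 were named because they passed this test, so the count is partly fixed by the choice. Values are differences of log2 changes. Among the more positive at 24 h were H19 (3.683), Lgals3 (3.646), Spp1 (2.626), S100a4 (2.488), Vim (2.316), Hspb1 (2.192), Cyba (2.132), S100a10 (2.104), RT1-Da (2.023), Oma1 (1.927), Fabp7 (1.658) and Plin2 (1.655). Smaller positive differences were those of Dbp (1.616), Crhbp (1.548), Cd63 (1.452), Ifitm3 (1.354), Igfbp2 (1.345), C1qb (1.293), Gpx1 (1.225), Cnn3 (1.194), Vgf (1.192), Ccnd1 (1.039), Ctsb (0.675) and Anxa5 (0.5243).

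Among the more negative at 24 h were Ces1dl1 (−2.154), Atp2b4 (−1.835), Arc (−1.593), Camk2a (−1.498), Nr4a3 (−1.46), Chn1 (−1.183), Cckbr (−1.129), Prps1 (−1.127) and Itpr1 (−1.077). Smaller negative differences were those of Ppp3ca (−0.955), Cnr1 (−0.8382), Aldoc (−0.833), Sqle (−0.821), Cacna1g (−0.7993), Uchl1 (−0.7203), Nefh (−0.6778), Glud1 (−0.6292) and Vamp2 (−0.6153). Cacna1g and Vamp2 did not pass in the 6 arrays of 24 h alone. Most of these genes were named for their values at 24 h, so the direction of the difference is not independent of that choice.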

How the results depend on the processing

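The fit of 6 arrays gave 314 probe sets at 24 h, 248 for the difference from the other times and 92 genes on the lists. With all 30 arrays the 24 h count was 722 (311 higher, 411 lower), or 520 with weights per group (226 and 294), and the list count 172 or 139. The 6 arrays were fitted alone because of an earlier simulation with these data, whose values are not given here. It gave more false calls at 24 h than the threshold promises when the spread was pooled over 30 arrays. Without a signal filter the 24 h and list counts were 158 (102 higher, 56 lower) and 45. Without the trend of the spread with intensity they were 125 (79 and 46) and 40. The cause of these differences was not tested. Set against 6 and 72 h alone, the time difference was called for 162 probe sets. Leaving out 1 array gave 98 to 364 probe sets at 24 h, 125 to 300 for the time difference and 37 to 101 list genes, with fewer samples in each fit. The 98 without PBS array 3 were 79 higher and 19 lower, and the 364 without kainate array 2 were 161 higher and 203 lower. Fdps had 0.001107 (adjusted p = 0.997) with the mean of its probe sets, the 1 named value that turned sign. Of 1465 values of named genes under other settings 1138 kept their side of the threshold, 304 lost and 22 gained a call.

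The replicate numbers did not pair the arrays (correlations of same-numbered deviations −0.06, −0.005 and 0.08). With the replicate number as a block 213 probe sets passed at 24 h, 179 for the time difference and 67 list genes. Signals near the floor limit what low probe sets can show, and 3 arrays per group limit the precision.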
